A study of Mus musculus with 2 samples.

Results

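The proteasome is the protease complex that degrades ubiquitin-tagged proteins, and its subunit genes were measured in hindlimb skeletal muscle of transgenic mice that overexpress Syn4 and in that of wild-type animals. Members were all genes whose probe sets carry a single gene symbol of the form Psma to Psmg followed by a number. This gave 50 genes and 56 probe sets, of 19938 genes measured by 21789 such probe sets. Of the 50 genes, 48 encode subunits, activators, assembly chaperones or a regulator of the complex. The other two match by spelling and encode other proteins. Psmc3ip, a meiotic recombination factor, had log2 intensities of 6.11 in the transgenic and 6.36 in the wild-type array, and Psme3ip1, a protein that binds the activator PA28-gamma, had 8.68 in the transgenic and 8.65 in the wild-type array. They are left out of every count that follows.

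The transgenic group is male C57BL/6J mice that overexpress Syn4 (syntaxin 4, a plasma membrane protein of vesicle fusion) from a transgene, and the wild-type group is male C57BL/6J mice without it. Both were fed standard chow, and each group is 1 array, made from 100 ng of RNA. The promoter and species of the transgene, the age of the mice and the number of mice behind each array are not given by these sources. Values are log2 intensities after RMA (robust multi-array averaging, which puts both arrays on a common scale) as deposited, and each difference is transgenic minus wild type. With 1 array per group there is no spread between mice, no test was possible, and no value below carries an error. Stx4a, the transgene's gene, stood at 12.20 in the transgenic and 8.84 in the wild-type array. All 7 skeletal muscle markers were between 13.28 and 14.45 in the transgenic and between 13.19 and 14.44 in the wild-type array, and differed by -0.03 (Ckm) to 0.20 (Ttn).

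The proteasome has a barrel-shaped 20S core and 1 or more caps. The core is built of stacked rings of alpha subunits, which gate the entry, and of beta subunits, some of which cut the protein chain. The 19S cap, made of a base and a lid, binds ubiquitin chains, removes them and feeds the unfolded protein into the core. In skeletal muscle this system degrades much of the myofibrillar protein lost during wasting, downstream of ubiquitin ligases such as those encoded by Trim63 and Fbxo32. In immune cells, and in other cells under interferon, alternative catalytic beta subunits form the immunoproteasome, which favours peptides that fit MHC class I molecules.

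Most proteasome genes lay well above the level filter in muscle and were close to equal in both arrays. Levels of the 48 genes ran from 4.70 to 12.99 in the transgenic array and from 4.67 to 12.93 in the wild-type array. A gene entered the counts when the higher of its values reached 6.79, the median over all genes of the higher value. Of the 48, 45 did so, and Psma8, Psmb11 and Psmg3 did not. None of the 45 differed by 1.5-fold (0.58 on the log2 scale) in either direction. Of all 9974 genes above the filter, 2.66% were higher and 1.71% lower in the transgenic array by that amount. At 1.2-fold (0.263 on the log2 scale), Psmd1 and Psme4 were higher, which is 4.44% of the 45, against 14.9% of all genes. Psmd2, at 0.26, fell just short. Psme1 alone was lower, which is 2.22% of the 45, against 10.4% of all genes. When both arrays were quantile normalized again, the shares of all genes past 1.2-fold were 11.9% higher and 13.2% lower, and the members' counts were still 2 and 1. With the mean of all probe sets, 3 members were higher, against 14.8% of all genes. After removal of a trend on level, 3 were also higher, against 13%. The lower and upper quartiles of the 45 differences were -0.02 and 0.12, those of all genes -0.12 and 0.17, and both had a median of 0.03. Many members are bright, so the spread was also read among genes at or above 10. There, 2 of 27 members were higher and 0 lower by 1.2-fold, against 13.3% and 13% of 2279 genes. At that level 18 of the 27 members were above 0, with a median of 0.06, against 1107 of the 2279 genes and a median of 0.

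**Figure D1:**
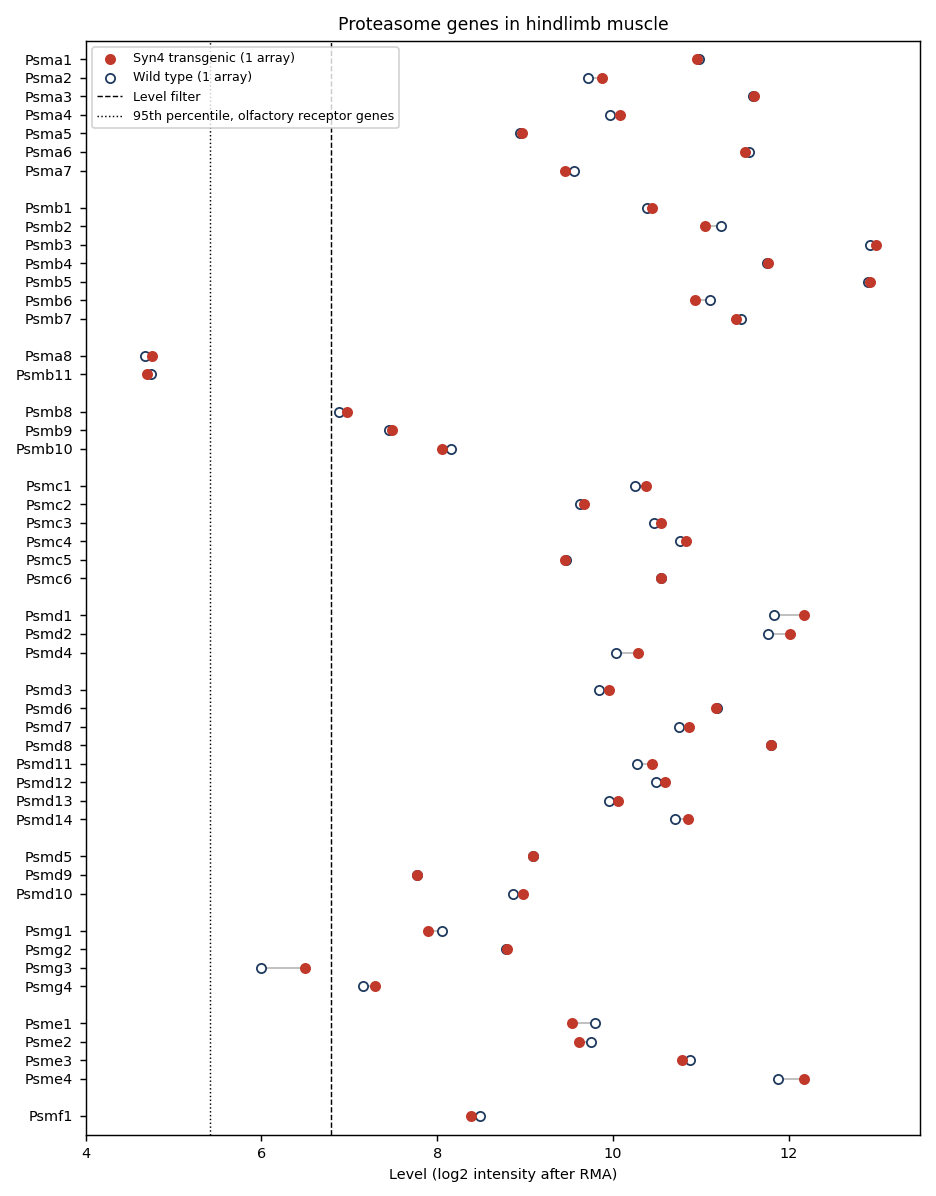
Log2 intensity (x axis) of each of the 48 proteasome genes (rows, grouped by role) in the Syn4 transgenic array (filled points) and the wild-type array (open points). The dashed line is the level filter of 6.79 and the dotted line the 95th percentile of olfactory receptor genes, 5.42. Core and 19S genes lie well to the right of the filter, immunoproteasome genes lie between 6.88 and 8.16, and Psma8 and Psmb11 left of both lines.

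Genes of the 20S core were split around 0. The alpha ring, Psma1 to Psma7, had 4 members above 0 and 3 below, with a median of 0.02. Psma2 was highest in difference, at 9.88 in the transgenic and 9.72 in the wild-type array (0.16). Psma4 followed, at 10.08 in the transgenic and 9.97 in the wild-type array (0.11). Psma7 was lowest, at 9.45 in the transgenic and 9.56 in the wild-type array (-0.11). The other alpha genes, Psma1, Psma3, Psma5 and Psma6, differed by -0.05 to 0.03. Psma3 was read by 3 probe sets, whose differences were 0.02, 0.00 and 0.02, and Psma5 by a pair, with 0.03 and -0.01.

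The constitutive beta ring, Psmb1 to Psmb7, held the lowest differences of the core. Psmb2, a structural subunit, stood at 11.05 in the transgenic and 11.23 in the wild-type array (-0.18). Psmb6, which carries the caspase-like activity, stood at 10.93 in the transgenic and 11.10 in the wild-type array (-0.17). The other catalytic genes were nearer 0: Psmb7, with the trypsin-like site, had 11.40 in the transgenic and 11.46 in the wild-type array (-0.06). Psmb5, with the chymotrypsin-like site, had 12.93 in the transgenic and 12.90 in the wild-type array (0.03). The structural genes Psmb1, Psmb3 and Psmb4 differed by 0.02 to 0.06. Of the 7 beta genes 4 were above 0 and 3 below, with a median of 0.02 and a mean of -0.03, so the median and the mean differ in sign. Over the whole core of 14 genes, 8 were above 0 and 6 below, with a median of 0.02. Among all genes above the filter, 53.5% were above 0 and 44.2% below, with a median of 0.03. The sign of the core median was not stable: it was -0.02 after quantile normalization, with 5 genes above 0 and 8 below. All genes above the filter moved the same way, to 46.9% above 0 and 51.7% below, with a median of -0.01. The tissue-specific core genes were dim. Psma8, the alpha subunit of male germ cells, had 4.75 in the transgenic and 4.67 in the wild-type array, and Psmb11, of thymic epithelium, had 4.70 in the transgenic and 4.74 in the wild-type array. All 4 values are under 5.42, the 95th percentile of 1027 olfactory receptor genes, a family used here as a gauge of background.

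Genes of the 19S cap leaned to the transgenic side. Of the 17 genes of its base and lid, 13 were above 0, 2 below and 2 at 0, with a median of 0.10, against 53.5% above 0 and 44.2% below among all genes above the filter. After quantile normalization 12 were above 0 and 4 below, with a median of 0.08, against 46.9% and 51.7% of all genes. The range, -0.02 to 0.35, overlapped that of the core, -0.18 to 0.16.

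The largest 19S differences belonged to the base subunits that are not ATPases, the part of the cap that holds ubiquitin receptors and the large scaffolds. Psmd1, the scaffold known as Rpn2 in yeast, had 12.18 in the transgenic and 11.83 in the wild-type array. This is a difference of 0.35, or 1.27-fold, and it was exceeded by 8.50% of all genes above the filter. Psmd2, known as Rpn1 in yeast and the docking site of shuttle factors and of the deubiquitinase Usp14, had 12.02 in the transgenic and 11.76 in the wild-type array (0.26). Its other probe set had 11.93 in the transgenic and 11.61 in the wild-type array (0.32). Psmd4, the ubiquitin receptor known as Rpn10 in yeast, had 10.29 in the transgenic and 10.04 in the wild-type array (0.25). All 3 genes were therefore higher in the transgenic array by 1.19-fold or more. Their median of 0.26 was 0.23 after quantile normalization and 0.27 after removal of a trend on level.

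The ATPases of the base, Psmc1 to Psmc6, which unfold the substrate, differed less. Psmc1 had 10.38 in the transgenic and 10.25 in the wild-type array (0.13) on its brighter probe set. Its other probe set had 10.20 in the transgenic and 9.90 in the wild-type array, a difference of 0.30, so its probe sets disagree in size. Psmc3 had 10.55 in the transgenic and 10.47 in the wild-type array (0.08). Psmc4 (0.07), Psmc2 (0.04), Psmc6 (0.00) and Psmc5 (-0.02) were closer to 0. The 6 ATPase genes had a median of 0.06.

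Lid genes lay between these groups, with 6 of 8 above 0 and a median of 0.11. Psmd11, whose protein clamps the lid to the core, had 10.44 in the transgenic and 10.27 in the wild-type array (0.17). Psmd14, the deubiquitinase that removes the ubiquitin chain, had 10.85 in the transgenic and 10.71 in the wild-type array (0.14). Psmd3 and Psmd7, both structural, differed by 0.12 each, and Psmd12 and Psmd13 by 0.10 each. Psmd8, at 11.80 in both arrays, and Psmd6, at 11.17 in the transgenic and 11.18 in the wild-type array, did not share the lean.

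**Figure D2:**
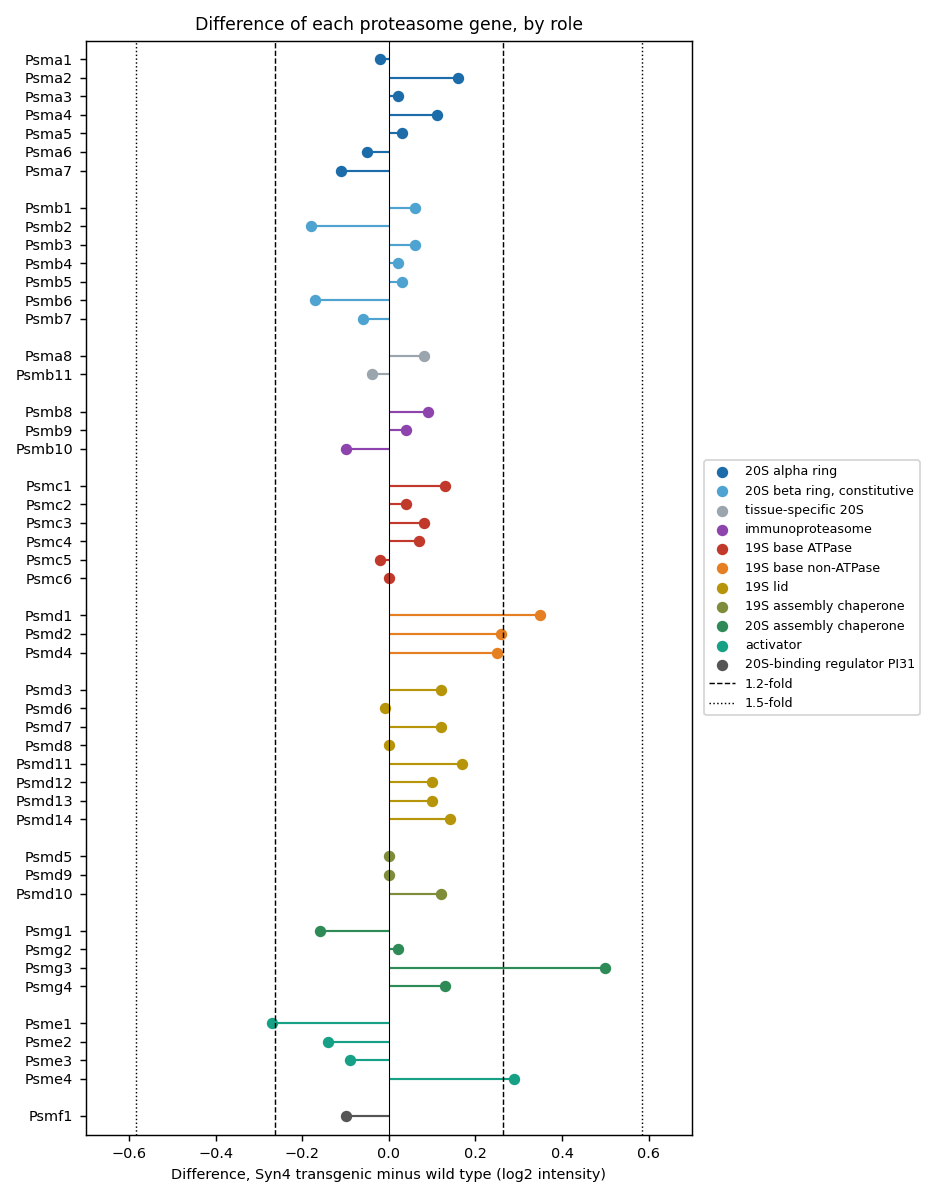
Difference of each proteasome gene, transgenic minus wild type (x axis, log2 intensity), with rows and colours by role. Dashed lines mark 1.2-fold and dotted lines 1.5-fold. Psmd1 and Psme4 pass the dashed line to the right and Psme1 to the left, and Psmg3, further right at 0.50, is under the level filter.

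The activators went in both directions. Psme4, which encodes PA200, a single-chain cap found in nuclei, had 12.17 in the transgenic and 11.88 in the wild-type array. Its 0.29 was the second largest of the 45 genes. Psme1 and Psme2 encode the alternating subunits of PA28, an interferon-inducible cap. Psme1 had 9.53 in the transgenic and 9.80 in the wild-type array, a difference of -0.27, the lowest of all members, and 9.67% of all genes were lower still. Psme2 had 9.61 in the transgenic and 9.75 in the wild-type array (-0.14). Both PA28 genes were thus lower in the transgenic array, unlike Psme4. Psme3, for the nuclear PA28-gamma, had 10.79 in the transgenic and 10.88 in the wild-type array (-0.09). Psmf1, for the core-binding regulator PI31, had 8.39 in the transgenic and 8.49 in the wild-type array (-0.10). A probe set that lists Psme2 beside a near-identical copy was not used, and cross-hybridisation of Psme2 with that copy cannot be told apart here.

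The promoters of the genes with the largest differences are shown next, with Psmb6 as a core gene on the other side. Each is the 250 bases before the gene's start, from RefSeq on GRCm38.p6, printed 5′ to 3′ on the gene's strand. The table held a promoter for 40 of the 48 genes. Capitals mark matches on either strand to CCGGAA (the core bound by ETS factors), CCAAT (NF-Y) and TGACNNNGC (antioxidant response element, bound by NRF1 and NRF2, which control proteasome genes).
Psmd1 promoter, chr1:86064369-86064618, + strand: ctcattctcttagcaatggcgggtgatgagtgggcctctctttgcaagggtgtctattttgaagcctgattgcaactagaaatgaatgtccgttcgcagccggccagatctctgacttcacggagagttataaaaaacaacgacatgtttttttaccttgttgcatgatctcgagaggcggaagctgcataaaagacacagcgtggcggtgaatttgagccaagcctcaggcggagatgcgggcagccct
Psmd2 promoter, chr16:20651402-20651651, + strand: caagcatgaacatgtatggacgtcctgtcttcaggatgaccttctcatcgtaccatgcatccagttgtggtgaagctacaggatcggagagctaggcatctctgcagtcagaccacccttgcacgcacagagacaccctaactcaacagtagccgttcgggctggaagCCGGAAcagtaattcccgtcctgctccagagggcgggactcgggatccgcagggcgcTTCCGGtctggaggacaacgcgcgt
Psmd4 promoter, chr3:95042615-95042864, - strand: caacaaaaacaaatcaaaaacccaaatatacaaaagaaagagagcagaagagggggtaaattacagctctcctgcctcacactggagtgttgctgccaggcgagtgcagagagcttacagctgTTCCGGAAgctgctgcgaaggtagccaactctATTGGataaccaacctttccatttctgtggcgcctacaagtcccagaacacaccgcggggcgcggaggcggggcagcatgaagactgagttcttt
Psme4 promoter, chr11:30771525-30771774, + strand: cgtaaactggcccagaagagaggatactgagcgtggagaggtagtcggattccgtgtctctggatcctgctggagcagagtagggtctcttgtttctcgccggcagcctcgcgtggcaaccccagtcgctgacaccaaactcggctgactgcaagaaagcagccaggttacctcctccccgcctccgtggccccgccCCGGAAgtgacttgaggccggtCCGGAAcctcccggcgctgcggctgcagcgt
Psme1 promoter, chr14:55578244-55578493, + strand: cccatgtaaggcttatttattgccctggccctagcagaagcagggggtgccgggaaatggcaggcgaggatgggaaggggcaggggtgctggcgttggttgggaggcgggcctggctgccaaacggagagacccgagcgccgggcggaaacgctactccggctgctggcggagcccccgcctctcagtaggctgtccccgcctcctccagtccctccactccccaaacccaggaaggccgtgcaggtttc
Psmb6 promoter, chr11:70525107-70525356, + strand: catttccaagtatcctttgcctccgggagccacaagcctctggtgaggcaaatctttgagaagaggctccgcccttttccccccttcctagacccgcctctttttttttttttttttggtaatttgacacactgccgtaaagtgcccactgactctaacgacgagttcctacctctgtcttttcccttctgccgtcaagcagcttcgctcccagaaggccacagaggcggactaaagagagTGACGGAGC
The promoters of Psmd2, Psmd4 and Psme4 each hold CCGGAA at 2 positions, those in Psmd4 overlapping, and Psmd4 also holds CCAAT. Psmb6 holds TGACNNNGC just before its start. Psmd1 and Psme1 hold none of the 3 motifs in this window.

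Core and cap promoters differed in their motif counts. CCGGAA was found in 10 of the 14 19S genes with a promoter in the table (71.4%), in 2 of 11 constitutive core genes (18.2%) and in 13.6% of all genes in the table. CCAAT was found in 4 of those 14 19S genes (28.6%), in 6 of 11 core genes (54.5%) and in 37.5% of all genes. TGACNNNGC was found in 5 of the 40 members (12.5%), namely Psmb5, Psmb6, Psmc6, Psmd9 and Psmd12, and in 11.5% of all genes. CCGGAA was chosen after the promoters had been read, the table also lists genes that make no protein, and a match shows letters only. The 17 members with CCGGAA ran in difference from Psmg1 (-0.16) to Psme4 (0.29). Among the 19S genes, Psmd2 (0.26) and Psmd4 (0.25) have it, and so do Psmc5 (-0.02), Psmc6 (0.00) and Psmd6 (-0.01). Psmd1 (0.35) does not. The part of these motifs in the differences was not tested.

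All 3 immunoproteasome genes were above the level filter, Psmb8 only just, and were near equal in both arrays. Psmb8 (LMP7) had 6.97 in the transgenic and 6.88 in the wild-type array (0.09). Psmb9 (LMP2) had 7.49 in the transgenic and 7.45 in the wild-type array (0.04). Psmb10 (MECL1) had 8.06 in the transgenic and 8.16 in the wild-type array (-0.10). Each of them replaces a constitutive subunit, so their differences were also taken against those of the partners. Psmb9 minus Psmb6 was 0.21, Psmb8 minus Psmb5 was 0.06 and Psmb10 minus Psmb7 was -0.04. Most of the 0.21 came from the -0.17 of Psmb6.

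Genes that share the immunoproteasome's inducer or its antigen-processing role were read beside it. Of 16 measured interferon-inducible genes, 13 were above 0, with a median of 0.29 (0.28 over the 12 that pass the level filter). Gbp3, among those 12, passes through the transgenic array only (7.07 in the transgenic and 6.64 in the wild-type array). The filter is thus not independent of the difference. Among all genes above the filter, 53.5% were above 0 and the median was 0.03. Others of the list were as near 0 as the immunoproteasome genes, such as Irf8 (0.00), Bst2 (0.03) and Ifit3 (-0.07), 3 genes chosen after their values were seen. Ifi27l2a, an interferon-induced gene, was highest, at 8.02 in the transgenic and 6.91 in the wild-type array (1.11), and the chemokine gene Cxcl10 was lowest (-0.08). Ifit2, also past 1.5-fold, had 6.61 in the transgenic and 5.84 in the wild-type array (0.77). Its values, like those of Cxcl10, were under the level filter. Of 10 measured genes of MHC class I antigen processing, 8 were above 0, with a median of 0.12 (0.155 over the 8 that pass the level filter). B2m, the light chain of MHC class I, was highest, at 12.35 in the transgenic and 11.97 in the wild-type array (0.38), and Tapbpl, a peptide editor of that pathway, was lowest (-0.16). Tapbpl was under the level filter, at 6.54 in the transgenic and 6.70 in the wild-type array. The lowest of those that pass was Nlrc5 (0.00). Tap1 and Tap2, the peptide transporter genes that neighbour Psmb8 and Psmb9, differed by 0.12 each and were named after their values were seen. Tap1 was under the level filter, at 6.58 in the transgenic and 6.46 in the wild-type array. Leukocyte markers, whose cells carry immunoproteasomes, had 11 of 18 members above 0, a median of 0.11 (0.20 over the 11 that pass the level filter) and a summed level of 12.13 in the transgenic and 11.96 in the wild-type array. They ran from Nkg7 (-0.36) to H2-Eb1 (0.47), and the lymphocyte markers Ms4a1 and Nkg7 were under the olfactory receptor percentile in both arrays. Cd8a was under it in the transgenic array only (5.35 in the transgenic and 5.44 in the wild-type array) and Cd14 in the wild-type array only (5.46 in the transgenic and 5.37 in the wild-type array). The part of these cells in the immunoproteasome values was not tested. In whole muscle, fewer cells of a type and less RNA per cell cannot be told apart.

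Assembly chaperones differed little where they were bright enough to count. The 19S chaperone genes Psmd5 (9.09 in both arrays) and Psmd9 (7.77 in both) were equal, and Psmd10, which encodes gankyrin, had 8.98 in the transgenic and 8.86 in the wild-type array (0.12). Among the 20S chaperone genes, Psmg1 had 7.89 in the transgenic and 8.05 in the wild-type array (-0.16). Its dimer partner Psmg2 had 8.80 in the transgenic and 8.78 in the wild-type array (0.02). Psmg4 had 7.29 in the transgenic and 7.16 in the wild-type array (0.13), and its partner Psmg3 had 6.50 in the transgenic and 6.00 in the wild-type array. The 0.50 of Psmg3 is the largest difference of the 48 genes, but it rests on values under the filter.

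**Figure D3:**
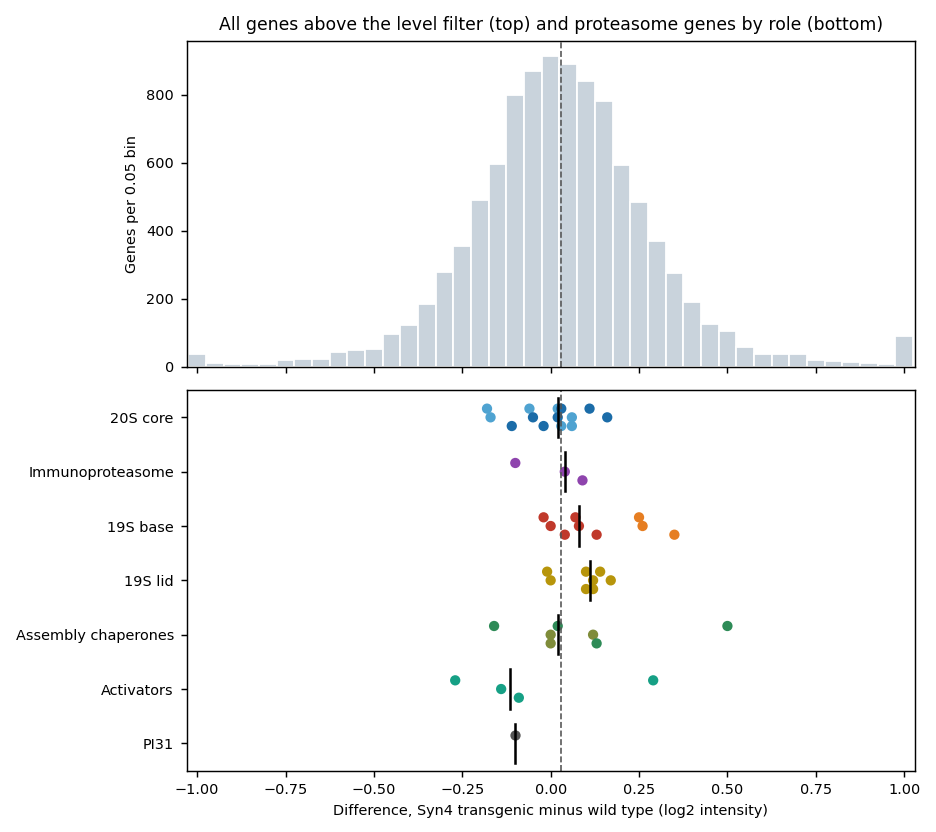
Top, number of genes per 0.05 of difference (transgenic minus wild type, log2 intensity) over the 9974 genes above the level filter, with differences beyond 1 placed in the end bins; bottom, proteasome genes by role on the same axis, with black bars at the medians and colours as in the plot of differences by role. The dashed line is the median of all genes, 0.03. Core genes straddle it, base and lid medians (0.08 and 0.11) lie to its right, and the activator median (-0.12) to its left.

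Partners of the proteasome outside the symbol rule were read beside all genes above the filter, of which 53.5% were above 0, with a median of 0.03. Of 14 measured cofactors, 9 were above 0, with a median of 0.08. Akirin2, which brings proteasomes into the nucleus, was highest, at 9.88 in the transgenic and 9.57 in the wild-type array (0.31), and the shuttle factor Ubqln4 was lowest (-0.09). Usp14, the deubiquitinase that docks on the Psmd2 protein, had 10.06 in the transgenic and 9.82 in the wild-type array (0.24) and was named after its value was seen. Of 8 measured genes around the p97 unfoldase, which extracts ubiquitinated proteins from complexes and membranes, 6 were above 0, with a median of 0.09. Vcp, which encodes p97 itself, was highest, at 12.08 in the transgenic and 11.64 in the wild-type array (0.44), and Ubxn1 was lowest (-0.12).

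Of 10 measured genes that control proteasome transcription, 5 were above 0 and 4 below, with a median of 0.04. Among all genes above the filter, 53.5% were above 0 and 44.2% below, with a median of 0.03. Foxo3, which drives atrophy genes in muscle, was highest, at 8.19 in the transgenic and 7.79 in the wild-type array (0.40), and the NF-Y subunit gene Nfyc was lowest (-0.20). Nfe2l1, which encodes NRF1, had 12.39 in the transgenic and 12.09 in the wild-type array (0.30) and was named after its value was seen. Of 10 muscle ubiquitin ligase genes, 7 were above 0, with a median of 0.14, from Stub1, a chaperone-linked ligase (-0.17), to Trim63, the ligase MuRF1 (0.52). After quantile normalization the medians were 0.04 (cofactors), 0.05 (p97 genes), -0.01 (control genes) and 0.10 (ligases), against -0.01 over all genes. No gene of these 4 lists reached 1.5-fold, against 2.66% higher and 1.71% lower among all genes above the filter. With shares that small, lists of this size would hold few such genes or none. Of 6 ubiquitin and ubiquitin-activation genes only Uba6 was measured here (0.24).

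**Figure D4:**
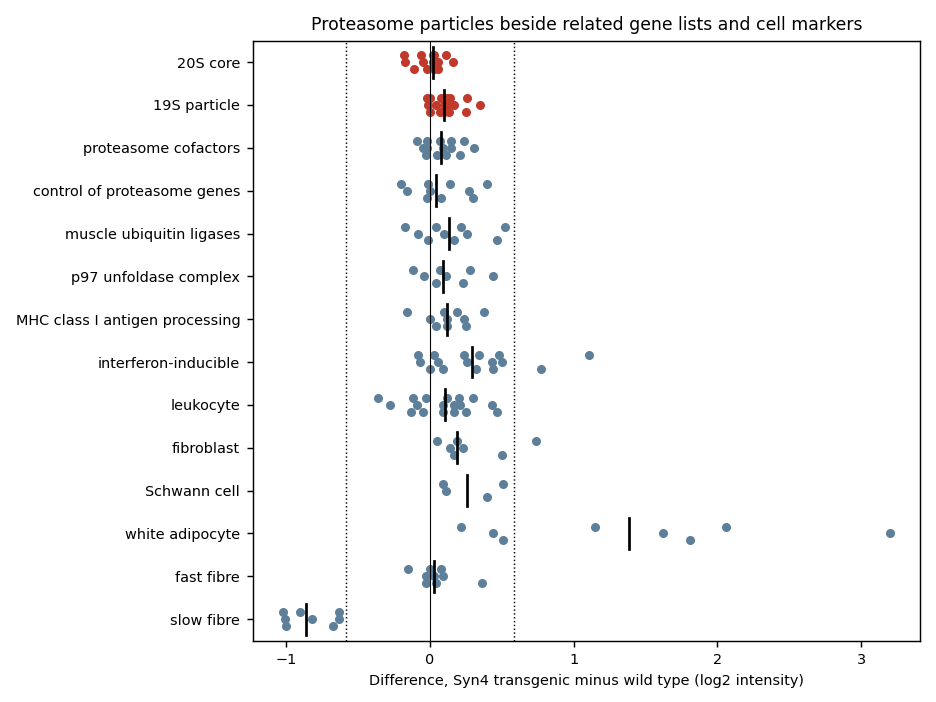
Differences, transgenic minus wild type (x axis, log2 intensity), of core and 19S genes (red) and of related gene lists and cell markers (blue), with black bars at the medians and dotted lines at 1.5-fold. Proteasome genes and their partners stay inside the dotted lines, whereas all 8 slow fibre markers lie left of them and 5 of 8 white adipocyte markers right of them. Of all genes above the level filter, 1.71% lie past 1.5-fold to the left and 2.66% to the right.

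The same arrays differed in markers of cell and fibre composition. All 8 white adipocyte markers were above 0 (median 1.39), from Fabp4 (0.22) to Lep (3.20), with Retn (1.15), Plin1 (1.62), Cidec (1.81) and Adipoq (2.06) also past 1.5-fold. Lep had 9.06 in the transgenic and 5.86 in the wild-type array, so it passes the level filter through the transgenic array only. The adipocyte markers had a summed level of 12.76 in the transgenic and 11.93 in the wild-type array. All 8 slow fibre markers were below 0 and past 1.5-fold (median -0.86), from Myl3 (-1.02) to Myl2 and Tpm3 (-0.63 each), and the others were Tnnc1, Tnni1, Tnnt1, Myh7 and Atp2a2. They had a summed level of 14.91 in the transgenic and 15.71 in the wild-type array. Of all genes above the filter, 2.66% were higher and 1.71% lower by 1.5-fold. Fast fibre markers had a median of 0.03, from Myh2 (-0.15) to Myh1 (0.36). The Schwann cell median was 0.26 over 4 genes, from Sox10 (0.09) to Mbp (0.51), and the fibroblast median 0.19 over 7, from Fbln1 (0.05) to Lum (0.74). The part of these cells and fibres in the proteasome values was not tested. Long genes also tended to be higher in the transgenic array: over the 45 members the rank correlation of difference with RefSeq gene span was 0.29, and over 9970 genes above the filter 0.26. These are descriptions across genes measured on the same pair of arrays. Psme4 and Psmd1 span 109376 and 74677 bases and had the largest differences of the 45, Psmd14 spans 88683 bases, and Psme1 spans 3034. Other members did not follow that order. Psmd2 (0.26) and Psmd4 (0.25), next in difference, span only 12293 and 9927 bases. Psmb7 (-0.06), Psma6 (-0.05) and Psmb2 (-0.18) span 55907, 34238 and 32079 bases and were lower in the transgenic array. These genes are examples from both sides. The part of gene span in the differences was not tested. With the mean level, the rank correlation was 0.12 over the members and -0.04 over the 9974 genes above the filter.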

How the data were processed

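Muscle RNA was measured on 2 whole-transcript arrays, 1 per genotype. The deposited values are log2 intensities of 35556 probe sets, made by the authors with RMA in Partek, per the submitters' processing notes. Versions and parameters are not stated there. Both arrays had a median of 6.06, and no measure of signal over background was used. RMA compresses ratios, so folds may be understated.

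Genes were named from the platform annotation, and all 50 members matched RefSeq by Entrez identifier. A gene with several probe sets (5 members) was given by the one with the highest mean, and members with several are also given probe set by probe set. Related lists were summarised by counts and medians, and their highest and lowest genes are named, with any gene past 1.5-fold. The members and lists were chosen with earlier results of these data known. Alternatives were other level filters, other probe set rules, centring, a loess trend (span 0.3), quantile normalization, means and a 2-fold threshold. The code of the counting and scaling steps was run on simulated data (Python 3.11.15, pandas 2.3.3, statsmodels 0.14.6). The differences planted there were far larger than those of the members. That run checks the code only and says nothing of differences as small as these.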

Additional observations from a re-analysis of the deposited data

How the results depend on the processing

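No paired analysis was possible because each genotype has 1 array, and no spread between mice can be given for any value. Values with no test are called moved when they shift by 0.1 or more on the log2 scale, and counts when they shift by more than 1.5-fold. Of 259 recomputed summaries, 254 stayed within those limits. The limit of 0.1 is as large as most class medians or larger, so staying within it does not show that a small median or its sign is stable. At a 2-fold threshold 0 members were higher and 0 lower, against 2 and 1 at 1.2-fold, which follows from the threshold. Among genes at or above 10, an alternative chosen after seeing the data, 0 members were lower by 1.2-fold, because Psme1 lies under that level. Over members above the filter only, the Schwann cell median was 0.40, and the pair of genes matched by spelling was reduced to Psme3ip1, at 0.03. Of 240 recomputed differences of single genes, 239 stayed within 0.1, and Psmc1 was 0.30 on its dimmer probe set. Many of the 240 could not change, so their number is no measure of stability. Centring subtracted 0, and the probe set rules can change only the 5 members with several probe sets. The core median changed sign with quantile normalization (-0.02), as did the median of all genes above the filter (-0.01). It also changed sign with the dimmer probe sets (-0.02, chosen after seeing the data) and as a mean (-0.01). Centring moved nothing, since the median over all genes, with no level filter, was 0.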

Other observations

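Several members lie close together in the genome. Psme1 and Psme2 are both on chromosome 14, and both were lower in the transgenic array (-0.27 and -0.14). Psmb5, also on chromosome 14, differed by 0.03. Psmb8 and Psmb9 are on chromosome 17, with differences of 0.09 and 0.04. The endothelial list, which no comparison above uses, had a median of 0.01 over 6 genes, from Kdr (-0.44) to Vwf (0.32). Of the erythroid list only Alas2 was measured (0.28).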
